A study of Mus musculus with 24 samples.

Results

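The genes described here encode MHC class II and the proteins that load it: H2-Aa, H2-Ab1 and H2-Eb1 are chains of the classical class II molecules, Cd74 is the invariant chain, and H2-DMa and H2-DMb1 form the peptide exchange factor H2-DM. They were chosen by symbol, and all 6 are among the 12091 genes of the expression table. The study blocked pleiotrophin (PTN) in mouse breast cancer, with 3 control and 3 PTN-inhibited samples in each of 4 experiments. In the tumor experiments, 4T1 cells were implanted in BALB/c female mice aged 8 weeks, and MMTV-PyMT transgenic mice on FVB/N, whose tumors arise from polyoma middle T under the MMTV promoter, were treated from 8 to 12 weeks of age. Tumor-bearing mice received C44, a mouse IgG control, or 3B10, a monoclonal antibody against PTN, each at 15 mg/kg in 2 doses a week. In the cell experiments, E0771 cells and E0771-LG cells, derived from a lung metastasis of E0771, both C57BL/6, carried pLKO.1-puro with an shRNA against EGFP (shCtrl) or a single shRNA against PTN (shPTN). All of these cells were selected in puromycin at 3 µg/ml for 6 weeks. The methods describe 3 biological replicates without saying how separately each was grown or housed, so p-values measure the spread between these samples.

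MHC class II presents peptides from endosomes to CD4+ T cells. Its chains are made together with the invariant chain, which fills the peptide groove until proteases digest it and H2-DM exchanges the remnant for a peptide. Dendritic cells, macrophages and B cells express these genes constitutively through the transactivator Ciita, while most other cells do so only under interferon-gamma.

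For MMTV-PyMT tumors and both cell lines, 18 samples in all, the values are log2 CPM (reads scaled to a common library size) with 0.5 reads added to each gene, and the reads were recovered from them. Depth was between 15.63 and 21.12 M reads per sample, with a median of 18.25. The 4T1 values gave back no reads, and their depth is unknown. In a check made after the values were seen, the level in 4T1 C44 tumors minus that in each other control group fell with exon length, with slopes of −0.83, −0.81 and −0.76 (both on log2 scales, 10541 genes), against −0.04 to 0.06 among the other control groups. The step that made the 4T1 scale is not stated, so their levels are not compared with those of other samples. Counting intervals on read ratios cover counting error only.

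H2-DMa, H2-DMb1, H2-Ab1, H2-Aa and H2-Eb1 lie in this order within 197.1 kb of chromosome 17, between 34119541 and 34316674, and Cd74 lies on another chromosome. H2-Aa is on the minus strand and the other 4 are on the plus strand. H2-DMa shares 360 exon bases, 10.4% of its exons, with Brd2 on the opposite strand. The strand of counting is not stated, and Brd2, looked up after the values were seen, had a log2 difference between shPTN and shCtrl of 0.14 (limma adjusted p 0.279) in E0771 and −0.0017 (adjusted p 0.992) in E0771-LG cells.

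The promoter table holds windows for 4 of the 6 genes. They were searched on both strands for AGNAACNG, a core of the X box, and for GATTGG, the inverted CCAAT of the Y box, because these genes are switched on together through such boxes. Of 32851 promoters of the same length, 17.4% hold the first motif, 16.1% the second and 2.68% both. The windows of H2-DMb1 and H2-Eb1 hold both, and that of H2-Aa holds the second alone. Of the 2 windows of H2-DMa, 1 holds the second motif, at −199, and the other holds neither. In H2-DMb1 the motifs start at −95 and −62 from the start site, and in H2-Eb1 at −92 and −60, with a second copy of GATTGG on the other strand. In H2-Aa the motif starts at −49. A match describes letters and is not a site shown to be used. The 3 windows that carry these arrangements, from RefSeq on GRCm38.p6, run from 250 bases before to 50 bases after the start, with motifs in capitals, at chr17:34152941-34153240 (plus strand), chr17:34305617-34305916 (plus strand) and chr17:34287774-34288073 (minus strand).
H2-DMb1: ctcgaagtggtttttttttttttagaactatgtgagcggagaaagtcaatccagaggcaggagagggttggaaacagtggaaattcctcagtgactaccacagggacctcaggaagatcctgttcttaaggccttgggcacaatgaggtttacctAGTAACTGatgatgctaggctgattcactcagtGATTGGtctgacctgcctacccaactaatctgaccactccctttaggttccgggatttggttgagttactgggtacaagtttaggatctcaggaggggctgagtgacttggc
H2-Eb1: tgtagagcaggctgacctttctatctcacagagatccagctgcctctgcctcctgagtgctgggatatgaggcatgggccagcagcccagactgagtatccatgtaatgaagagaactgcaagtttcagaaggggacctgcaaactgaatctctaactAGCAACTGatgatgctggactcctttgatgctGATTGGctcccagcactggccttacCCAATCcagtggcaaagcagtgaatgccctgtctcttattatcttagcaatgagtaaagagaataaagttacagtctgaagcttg
H2-Aa: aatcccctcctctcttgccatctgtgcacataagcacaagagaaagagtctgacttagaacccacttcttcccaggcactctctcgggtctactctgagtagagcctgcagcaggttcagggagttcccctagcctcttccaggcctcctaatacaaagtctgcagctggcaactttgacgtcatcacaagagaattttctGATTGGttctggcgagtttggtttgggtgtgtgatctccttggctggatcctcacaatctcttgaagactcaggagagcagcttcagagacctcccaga

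The label of the knockdown was checked on Ptn itself. Ptn reads were 128, 92 and 80 in E0771 shCtrl and 12, 21 and 22 in E0771 shPTN samples, and 216, 446 and 248 in E0771-LG shCtrl and 56, 35 and 45 in E0771-LG shPTN samples. Ptn fell by 2.40 on the log2 scale (SE 0.37, limma adjusted p 0.00159) in E0771 and by 2.71 (SE 0.28, adjusted p 6.3e-05) in E0771-LG cells, lower in 3 of 3 samples of each. The knockdown effect on Ptn differed by −0.30 between the 2 lines (adjusted p 0.651). In MMTV-PyMT tumors, where 3B10 binds the protein, Ptn reads were 133, 127 and 201 with C44 and 158, 142 and 303 with 3B10. Ptn was too low in 4T1 tumors to be tested.

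One tumor library stands apart at H2-Eb1. MMTV-PyMT 3B10 replicate 3 holds 32 reads of H2-Eb1 beside 572 of H2-Aa, a ratio of 0.0559, whereas the ratio was 0.619 and 0.586 in the other 3B10 tumors and 0.555, 0.586 and 0.645 in the C44 tumors. The ratios of H2-Ab1 (1.15 to 1.41) and Cd74 (3.75 to 4.44) to H2-Aa set no tumor apart. In a search made after the values were seen, 5 genes of this library lay over 2.5 below every other MMTV-PyMT tumor on the log2 scale: Fcgbp, Npr3, Rps18, H2-Eb1 (by 4.36) and H2-T23. Of these, 3 lie on chromosome 17, which holds 602 genes of the table (4.98%). They start close together, Rps18 at 33951999, H2-Eb1 at 34305867 and H2-T23 at 36029773. C44 replicate 3 also had 5 genes that far below the others, and none of them lies on chromosome 17. The differences of the 6 genes between MMTV-PyMT tumors and the medians beside them are given below with and without 3B10 replicate 3, and the origin of its low H2-Eb1 was not tested.

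**Figure D1:**
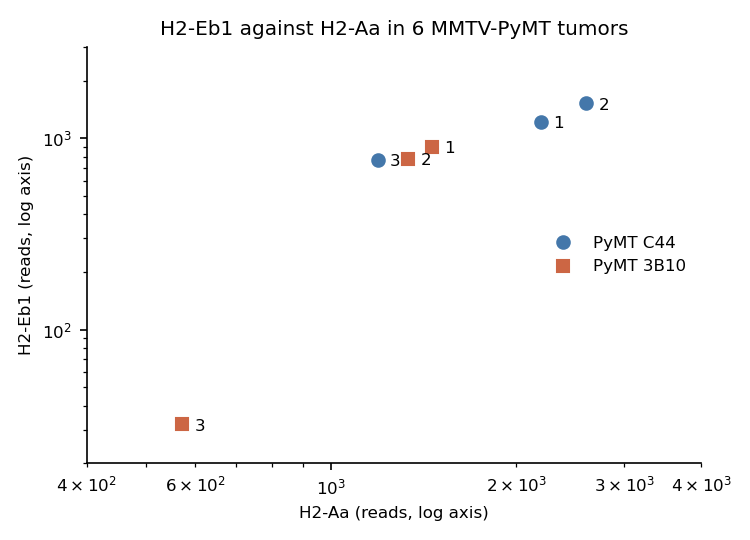
Reads of H2-Eb1 (vertical) against reads of H2-Aa (horizontal) in the 6 MMTV-PyMT tumors, both on log axes, with C44 in blue and 3B10 in orange. A single 3B10 tumor lies far below the other 5.

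The genes fall into 2 tiers of abundance. Per kb of exon, CPM in MMTV-PyMT C44 tumors was 256 for Cd74, 49.8 for H2-Ab1, 31.5 for H2-Eb1, 27.5 for H2-Aa, 7.07 for H2-DMb1 and 2.93 for H2-DMa. The 4T1 C44 tumors, on their own scale, also had Cd74 first (5763), then H2-Eb1 (1881), H2-Aa (1862) and H2-Ab1 (1314), and then H2-DMa (302) and H2-DMb1 (254). The cell lines had the other order, with H2-DMb1 first (13.6 in E0771 shCtrl and 3.39 in E0771-LG shCtrl cells), then H2-DMa (5.19 and 0.565), and Cd74 at 0.373 and 0.386. H2-Eb1, H2-Ab1 and H2-Aa were at 0.123, 0.0646 and 0.0485 in E0771 shCtrl cells, and at 0.00927, 0 and 0.019 in E0771-LG shCtrl cells. The cell lines thus held RNA for H2-DM with almost none for the molecule that H2-DM loads.

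**Figure D2:**
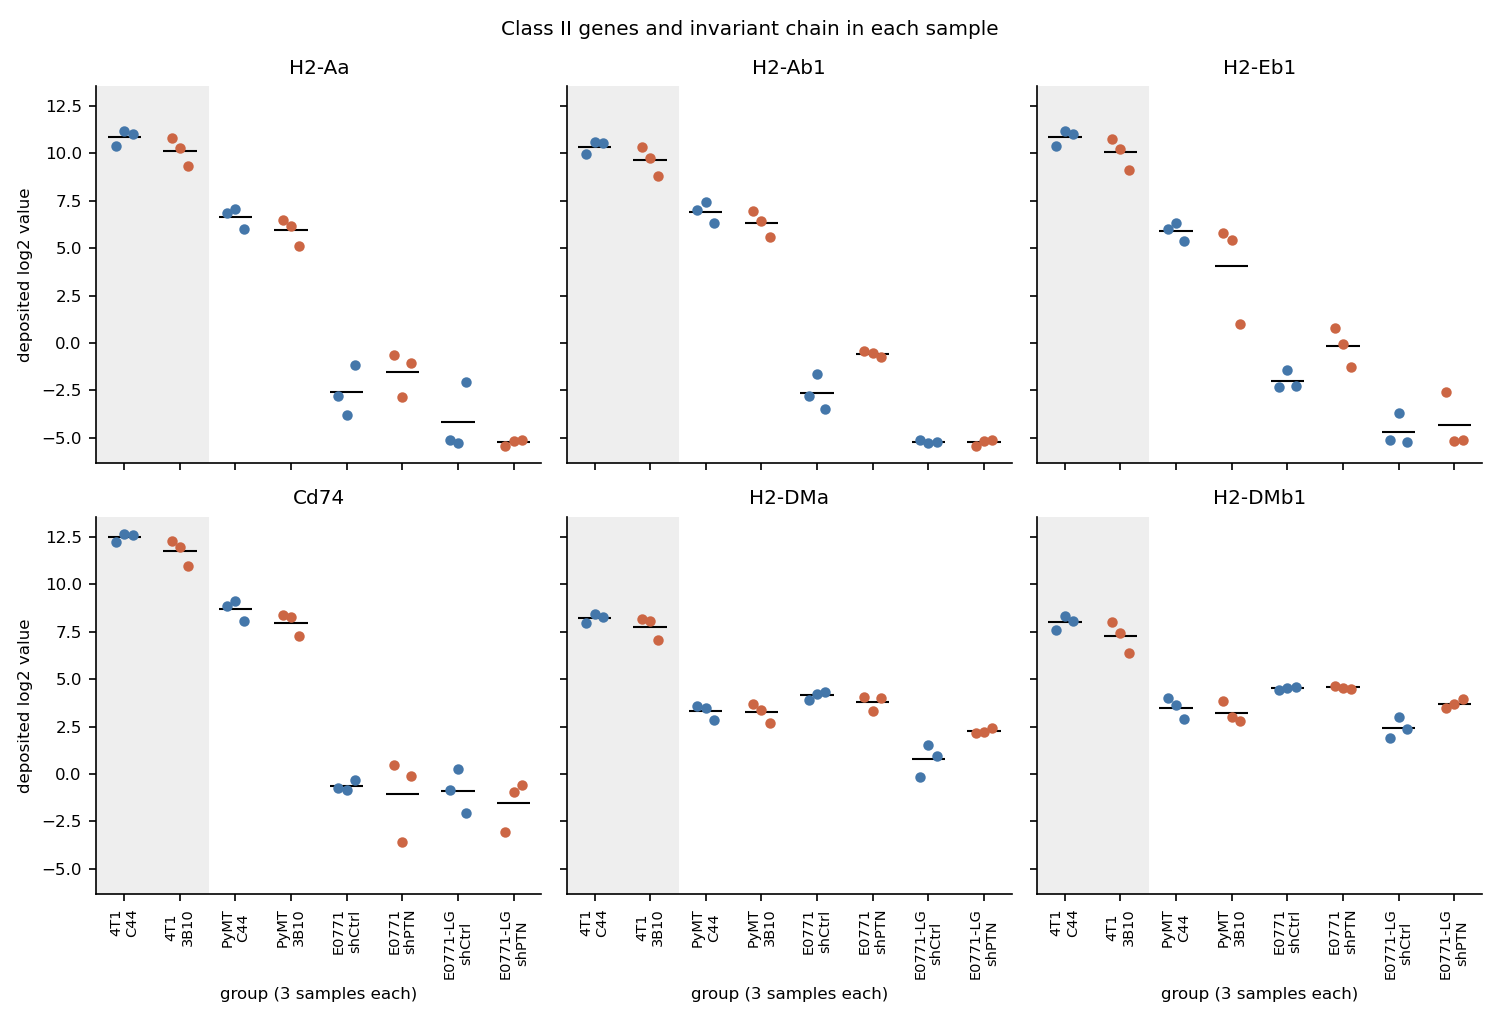
Log2 value of each gene in each of the 24 samples, with controls in blue, PTN-inhibited samples in orange and a line at each group mean. The 4T1 values are shaded because they are on another scale, and the 4 genes H2-Aa, H2-Ab1, H2-Eb1 and Cd74 sit near the floor in all 12 cell samples.

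In 4T1 tumors, the 6 genes were high in every sample and their mean was lower with 3B10 than with C44. The tumors of each treatment overlapped for each of these 6 genes. None of their differences passed the threshold of an adjusted p under 0.05, and 0% of all genes tested did.

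H2-Aa was at 10.40, 11.17 and 11.01 in C44 and 10.80, 10.28 and 9.34 in 3B10 tumors. H2-Ab1 was at 9.96, 10.59 and 10.52 against 10.35, 9.74 and 8.83, and H2-Eb1 at 10.40, 11.20 and 11.03 against 10.78, 10.22 and 9.14. Cd74 was at 12.22, 12.65 and 12.61 against 12.26, 11.96 and 10.97. In each of these genes, 3B10 replicate 3 was the lowest of the 6 tumors. The H2-DM genes had the same lowest tumor. H2-DMa was at 7.98, 8.44 and 8.29 in C44 and 8.17, 8.05 and 7.09 in 3B10 tumors, and H2-DMb1 at 7.59, 8.31 and 8.06 against 8.01, 7.46 and 6.37.

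The log2 difference between 3B10 and C44 was −0.72 (SE 0.37) for H2-Aa, −0.72 (SE 0.37) for H2-Ab1, −0.83 (SE 0.40) for H2-Eb1 and −0.76 (SE 0.32) for Cd74, −0.47 (SE 0.28) for H2-DMa and −0.71 (SE 0.40) for H2-DMb1. Without 3B10 replicate 3, the lowest tumor for all 6 genes, these became −0.32, −0.32, −0.38, −0.38, −0.13 and −0.25, so that much of each difference rested on that library. With limma, 0 of 6 passed the threshold, as did 0% of the 11467 genes tested. At an unadjusted p under 0.05, 1 of 6 passed (Cd74, p 0.0456, adjusted p 0.776), beside 6.27% of all genes. Over all alternatives, adjusted p-values of the 6 genes lay between 0.39 and 1. All 6 differences were below 0, beside 48.4% of all genes, and their median was −0.72 beside 0.01 for all genes. Without 3B10 replicate 3 all 6 were again below 0, beside 54% of all genes, with a median of −0.32 beside −0.02, and by limma 0 of 6 passed the threshold and 0 of 6 had an unadjusted p under 0.05, beside 3.21% of all genes. Fewer cells of a type and less RNA per cell cannot be told apart in these tumors.

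Other genes of the class II pathway gave no call in 4T1 tumors either, where 48.4% of all genes were below 0 (54% without 3B10 replicate 3). Ciita was at 4.41, 5.44 and 4.01 with C44 and 3.88, 4.12 and 2.90 with 3B10, a difference of −0.98 (SE 0.43, limma adjusted p 0.791), and −0.62 without 3B10 replicate 3. The other 7 class II regulators lay between −0.35 (Rfx5) and 0.47 (Rfxap), and the 8 regulators had a median of 0.17 (0.12 without that library). The list of other class II and antigen processing genes has 17 symbols, of which March1 and March8 are older names of Marchf1 and Marchf8, and 12 are in the table, 10 of them below 0, with a median of −0.35 (11 and −0.31 without it). H2-Ea, an alpha chain looked up after the values were seen, was at 11.14, 11.91 and 11.44 with C44 and 11.24, 10.80 and 9.70 with 3B10, a difference of −0.92 (unadjusted p 0.0458, limma adjusted p 0.776), and −0.48 without 3B10 replicate 3.

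Most leukocyte markers had lower means in the same 3B10 tumors, where 48.4% of all genes were below 0 (54% without 3B10 replicate 3). The sum of the 6 pan-leukocyte markers, off the log scale, was 2006, 1900 and 2139 with C44 and 1589, 1723 and 1335 with 3B10, with 6 of 6 below 0 and Tyrobp the most abundant (−0.36, SE 0.14, limma adjusted p 0.725). The 11 macrophage markers summed to 12910, 9960 and 12330 with C44 and 5611, 10160 and 6316 with 3B10, 11 of 11 were below 0 with a median of −0.46, and Lyz2 led them (−0.92, SE 0.29, adjusted p 0.725). Dendritic cell markers (2 of 9 in the table, 1 above and 1 below 0, with a median of −0.13 and Itgax the more abundant at −0.34) summed to 49.4, 72.8 and 39.3 against 46.2, 43.6 and 36.7. The 4 T cell markers in the table, of 5, had a median of −1.34, and Pax5, the only 1 of 6 B cell markers in the table, was too low to be tested. Neutrophil markers (3 of 4 in the table, median −0.70) and endothelial markers (3 of 3, median −0.27) were below 0, while the 5 epithelial markers tested, of 6, had a median of 0.78 and the 4 fibroblast markers 0.44. Without 3B10 replicate 3 the pan-leukocyte and macrophage markers were again all below 0, with medians of −0.29 and −0.52, and the medians were −0.03 for dendritic cell (Itgax −0.25), −0.83 for T cell, −0.43 for neutrophil, −0.02 for endothelial (1 of 3 above 0), 0.95 for epithelial and 0.54 for fibroblast markers. None of these markers passed the threshold with limma, with or without that library, and their part in the class II differences was not tested.

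In MMTV-PyMT tumors, the class II genes were again expressed in every sample, and their means were again lower with 3B10 than with C44. Spread between tumors was as wide as the differences. No gene passed the threshold, with or without the library that stands apart.

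H2-Aa was at 6.84, 7.08 and 5.99 in C44 and 6.48, 6.18 and 5.14 in 3B10 tumors, and H2-Ab1 at 7.04, 7.42 and 6.32 against 6.98, 6.45 and 5.57. H2-Eb1 was at 5.99, 6.31 and 5.36 against 5.79, 5.41 and 1.00. Cd74, the most abundant, was at 8.87, 9.10 and 8.07 (8998, 10578 and 5057 reads) against 8.39, 8.26 and 7.29 (5463, 5658 and 2539 reads). The H2-DM genes were far lower in the same tumors. H2-DMa was at 3.61, 3.46 and 2.83 against 3.71, 3.38 and 2.70, and H2-DMb1 at 4.00, 3.61 and 2.89 against 3.83, 3.01 and 2.82.

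The log2 difference was −0.70 (SE 0.40) for H2-Aa, −0.59 (SE 0.40) for H2-Ab1, −1.82 (SE 1.16) for H2-Eb1, −0.70 (SE 0.36) for Cd74, −0.04 (SE 0.34) for H2-DMa and −0.28 (SE 0.38) for H2-DMb1. Without 3B10 replicate 3, these became −0.30, −0.21, −0.28, −0.36, 0.24 and −0.08, so that the large difference at H2-Eb1 rested on that library. H2-DMa turned above 0 without it. With limma, 0 of 6 genes and 0% of the 11361 genes tested passed the threshold, and voom on the recovered reads also gave 0. At an unadjusted p under 0.05, 0 of 6 passed (lowest p 0.0933, for Cd74), beside 2.7% of all genes. Over all alternatives, adjusted p-values lay between 0.733 and 1. All 6 differences were below 0, beside 39% of all genes, with a median of −0.65 beside 0.05. Without 3B10 replicate 3, 5 of 6 were below 0, beside 39.8% of all genes, and the median was −0.25 beside 0.05, again with 0 of 6 past the threshold by limma and 0 at an unadjusted p under 0.05, beside 3.14%.

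The same lists were read in MMTV-PyMT tumors, where 39% of all genes were below 0 (39.8% without 3B10 replicate 3). Ciita reads were 134, 261 and 206 with C44 and 159, 225 and 69 with 3B10, a difference of −0.34 (SE 0.44), and 0.11 without 3B10 replicate 3. The 8 regulators had a median of 0.13 (0.14 without that library), and the 11 other class II and antigen processing genes tested had a median of −0.04, 6 of them below 0 (0.02 and 5 without it). H2-DMb2, named after its values were seen, was above 0 at 0.54 (SE 0.34), not past the threshold. Its reads were 83, 64 and 47 with C44 and 74, 71 and 103 with 3B10, highest in 3B10 replicate 3. The summed pan-leukocyte level was 147, 146 and 112 against 184, 119 and 112, and that of macrophage markers 733, 699 and 457 against 926, 490 and 551 (6 of 11 above 0, and 9 without 3B10 replicate 3). Laptm5 and Lyz2 led these lists at 0.02 and 0.01, both turning below 0 under median-of-ratios scaling and Laptm5 also under quantile normalization, and at 0.15 and 0.07 without 3B10 replicate 3. The 2 dendritic cell markers summed to 24.1, 27.4 and 17 against 22.5, 21 and 12.6 (Itgax −0.32, and −0.08 without 3B10 replicate 3). T cell markers summed to 2.55, 3.33 and 2.56 against 3.38, 1.30 and 2.52, and neutrophil markers to 21.7, 34.5 and 6.18 against 18.6, 12.6 and 15.1, while Pax5 had 0, 0 and 2 against 6, 0 and 1 reads. Epithelial, fibroblast and endothelial markers had medians of −0.10, −0.24 and 0.12 (−0.02, −0.14 and 0.28 without that library). No gene of these lists passed the threshold with limma.

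Whether 3B10 acted differently in the 2 tumor models was tested as an interaction. The difference of the 3B10 effect, MMTV-PyMT minus 4T1, was 0.02 for H2-Aa, turning below 0 under median-of-ratios and quantile scaling, 0.13 for H2-Ab1 and 0.06 for Cd74, both turning under quantile normalization, and −0.98 for H2-Eb1. It was 0.44 for H2-DMa and 0.43 for H2-DMb1. Without MMTV-PyMT 3B10 replicate 3 these were 0.42, 0.51 and 0.40 for the first 3, 0.55 for H2-Eb1, 0.72 for H2-DMa and 0.63 for H2-DMb1. Without 4T1 3B10 replicate 3 they were −0.38, −0.28 and −0.32 for the first 3, −1.44 for H2-Eb1, 0.10 for H2-DMa and −0.03 for H2-DMb1, so that 5 of the 6 values turned with 1 or the other of these tumors left out. With limma, 0 of 6 passed, as did 0% of 11944 genes, and at an unadjusted p under 0.05 it was 0 of 6 beside 2.68%. The median was 0.09 beside 0.04 for all genes, with 0.53 without the MMTV-PyMT library and −0.30 without the 4T1 library, and in both of these fits again 0 of 6 passed by limma and 0 had an unadjusted p under 0.05, beside 3.71% and 1.97% of all genes. The value for Ciita was 0.64, and 1.09 and 0.27 without these libraries, past the threshold in none. The tumor models differ in strain, origin and scale of values, which cannot be told apart.

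**Figure D3:**
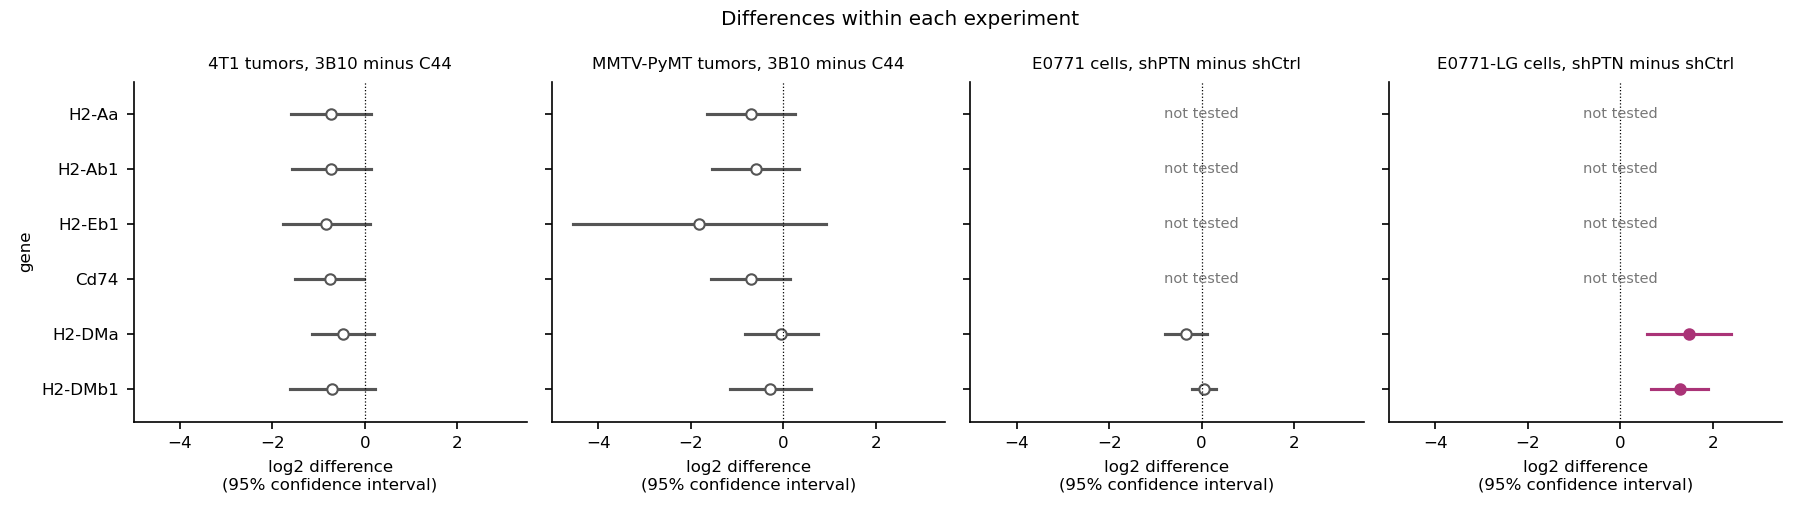
Log2 difference with 95% interval of each gene within each experiment, PTN-inhibited minus control, with filled marks for an adjusted p under 0.05 and open marks for the rest. Only H2-DMa and H2-DMb1 in E0771-LG cells are filled.

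Across the 12 tumors, the 6 genes varied together, which is a description and not a test, since the tumors share models and treatments. Each gene was centred within its model, and the 15 pairs had correlations between 0.632 and 0.993, with a median of 0.902 (n = 12). The range was 0.968 to 0.999 in the 6 4T1 tumors and 0.627 to 0.995 in the 6 MMTV-PyMT tumors. Without MMTV-PyMT 3B10 replicate 3 it was 0.858 to 0.992 (n = 11), and in an alternative chosen after seeing the data, without 4T1 3B10 replicate 3, it was 0.62 to 0.989 (n = 11) and 0.872 to 0.998 in the other 5 4T1 tumors. Of 10884 other genes ranked by their correlation with the mean of the 6, Tcp11l2 (0.926), Ctla2a (0.905), Csf3r (0.897), Ccn5 (0.887), Arhgef3 (0.883), Spns3 (0.881), Ass1 (0.879), Heg1 (0.879), Lamb2 (0.876) and Vdr (0.874) came first. This order was loose: 0 of the first 10 were shared with the order within either model, and in 2 alternatives chosen after seeing the data, 6 were shared when H2-Eb1 was left out of the mean and 3 without MMTV-PyMT 3B10 replicate 3.

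In E0771 cells, only the H2-DM genes were expressed well enough to be tested. The 4 other genes had at most 33 reads in any sample. Neither H2-DM gene differed past the threshold with PTN knockdown.

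H2-DMa was at 3.89, 4.22 and 4.34 (255, 381 and 335 reads) in shCtrl and 4.06, 3.35 and 4.03 (321, 183 and 254 reads) in shPTN samples. H2-DMb1 was at 4.42, 4.53 and 4.58 against 4.66, 4.53 and 4.50. The log2 differences were −0.34 (SE 0.21, limma adjusted p 0.276, and 0.159 to 0.68 over alternatives) and 0.05 (SE 0.12, adjusted p 0.799, and 0.514 to 0.989). Thus 0 of the 2 genes tested passed, where 20.6% of all genes did (voom on the recovered reads also passed 0). At an unadjusted p under 0.05 it was 0 of 2, beside 3541 of 10394 genes.

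The class II chains were near the floor in E0771 cells but not silent. Reads in shCtrl and shPTN samples were 2, 1 and 7 against 12, 2 and 7 for H2-Aa, and 2, 6 and 1 against 14, 12 and 9 for H2-Ab1. For H2-Eb1 they were 3, 7 and 3 against 33, 17 and 6, and for Cd74 10, 11 and 13 against 26, 1 and 14. When no filter on low values was used, H2-Ab1 was 2.08 higher in shPTN on the log2 scale (SE 0.49, limma adjusted p 0.0295, higher in 3 of 3 samples), and the fit of all 24 samples gave the same value with an adjusted p of 0.00355. H2-Ab1 passes the filter of that second fit through the tumors, and no support is taken from its call there. H2-Eb1 was 1.83 higher with adjusted p-values of 0.0722 and 0.253 in these 2 fits. At these levels the fitted values depend on the offset of 0.5 reads.

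Of 7 regulators of class II promoters tested, 1 passed the threshold in E0771 cells, where 20.6% of all genes did. Rfxap fell by 0.75 on the log2 scale (SE 0.17, limma adjusted p 0.0101, lower in 3 of 3 samples), with 572, 584 and 623 reads in shCtrl and 401, 279 and 363 in shPTN samples. Without E0771 shCtrl replicate 3 its difference was −0.66 with an adjusted p of 0.0526, in a range of 0.00103 to 0.0526 over alternatives. The other 6 regulators tested lay between −0.24 (Rfx5) and 0.10 (Nfyc), and Ciita, with 14, 10 and 11 against 16, 3 and 15 reads, was too low to be tested. Of 8 other class II and antigen processing genes tested, 1 passed, and the 8 had a median of −0.08. In the interferon-gamma list, Irf8 fell by 2.08 (SE 0.37, adjusted p 0.00335) and 1 more of the 8 genes tested was lower past the threshold.

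In E0771-LG cells, both H2-DM genes were higher after PTN knockdown. Both were called, in a comparison where 46.4% of all genes were. The classical chains were at or next to 0 reads with and without the knockdown.

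H2-DMa was at −0.16, 1.55 and 0.97 (15, 57 and 36 reads) in shCtrl and 2.18, 2.23 and 2.42 (95, 84 and 93 reads) in shPTN samples. H2-DMb1 was at 1.88, 3.02 and 2.36 (63, 158 and 95 reads) against 3.47, 3.71 and 3.93 (234, 236 and 266 reads). H2-DMa rose by 1.49 on the log2 scale (SE 0.41, 95% interval 0.58 to 2.40, 2.80-fold, limma adjusted p 0.0131), and H2-DMb1 by 1.29 (SE 0.28, 0.67 to 1.90, 2.44-fold, adjusted p 0.00376). Both genes tested passed, where 46.4% of all genes did, and their median was 1.39 beside 0.05. H2-DMa, at 0.867, 2.91 and 1.94 CPM in shCtrl samples, needed the shPTN samples to pass the filter on low values. No support is taken from the H2-DMa call or from the count of both genes. The H2-DMb1 call held in all 15 alternatives, with adjusted p-values between 0.000215 and 0.0231. The H2-DMa call was lost without E0771-LG shPTN replicate 3 (1.41, adjusted p 0.0543), in a range of 0.0016 to 0.0543, and H2-DMa was not tested under the stricter filter.

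The other 4 genes were too low to be tested in E0771-LG cells. H2-Ab1 had 0 reads in all 6 samples, H2-Aa had 0, 0 and 4 in shCtrl and 0 in each shPTN sample, and H2-Eb1 had 0, 1 and 0 against 3, 0 and 0. Cd74 had 9, 23 and 4 against 2, 9 and 11. Ciita had 0, 5 and 7 against 1, 0 and 0 and was also too low to be tested, and its part in the H2-DM result was not tested.

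Among the other regulators in E0771-LG cells, Rfxap rose by 0.43 (SE 0.13, limma adjusted p 0.0228, higher in 3 of 3 samples), from 337, 439 and 448 reads to 619, 502 and 546. Its adjusted p was 0.0916 (difference 0.38) without E0771-LG shPTN replicate 3, in a range of 0.022 to 0.0916. Nfyb, 0.33 higher (SE 0.12, adjusted p 0.04), lost its call without shCtrl replicate 1 (0.29, 0.0599), 2 (0.32, 0.0678) or 3 (0.36, 0.0683), and without shPTN replicate 2 (0.26, 0.163) or 3 (0.31, 0.121), as well as under median-of-ratios scaling (0.29, 0.0642) and in the fit of all 24 samples (0.0546), in a range of 0.0223 to 0.163. Rfxank, at 0.52 (adjusted p 0.147), passed without shCtrl replicate 2 (0.81, 0.0202, range 0.0202 to 0.404), and Creb1, at −0.24 (0.0717), passed without shCtrl replicate 1 (−0.26, 0.0493, range 0.0493 to 0.276). Rfx5 was at 0.11, turning below 0 under quantile normalization, Nfya at −0.07 and Nfyc at −0.08.

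Calls among other antigen presentation genes in E0771-LG cells are read beside the 46.4% of all genes called. Of 8 other class II and antigen processing genes tested, 3 rose and 1 fell, which is near that share, with a median of 0.52. Ifi30, the thiol reductase of class II processing, rose by 0.92 (SE 0.12, limma adjusted p 0.000206). The 10 class I presentation genes had 4 up and 2 down. H2-K1 had 3, 1 and 0 reads in shCtrl and 250, 291 and 254 in shPTN samples (log2 difference 7.56, SE 0.68, adjusted p 3.81e-05, a fitted value that depends on the offset), Tap2 rose by 0.93 (adjusted p 0.00148) and Erap1 fell by 0.92 (adjusted p 0.000279). H2-K1 passed the filter on low values through the shPTN samples and so had to differ, and no support is taken from its call. In the interferon-gamma list 1 of 8 genes passed, Jak1, which fell by 0.53 (adjusted p 0.00186).

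Leukocyte markers were present in part in the cell lines. Their calls are read beside 46.4% of all genes called in E0771-LG and 20.6% in E0771 cells. Tyrobp and C1qa, looked up after the values were seen, had 0 reads in all 12 cell samples, whereas Laptm5 and Coro1a had reads in each, with 4713 reads of Laptm5 over the 3 E0771-LG shCtrl libraries. The part of these markers in the H2-DM result was not tested. The pan-leukocyte sum was 91.6, 88.3 and 88.7 CPM in shCtrl and 47.6, 52.8 and 56 in shPTN samples, nearly all of it Laptm5, which fell by 0.94 (SE 0.10, limma adjusted p 7.61e-05), while Coro1a, the other of 2 tested, was above 0 and not called. In E0771 cells the sum was 15.5, 21.5 and 19.8 against 47.5, 32.5 and 38.4, with Coro1a the most abundant. Macrophage markers summed to 10.6, 13.9 and 15.9 against 15.9, 21.4 and 19.8 in E0771-LG cells, and to 18.9, 32.3 and 22.9 against 54.7, 45.8 and 48.8 in E0771 cells. Mertk led the shCtrl sums of E0771-LG cells, with 253 reads over 3 shCtrl and 218 over 3 shPTN libraries. Lyz2 led the shPTN sums, rising by 1.27 (limma adjusted p 0.00422) in E0771-LG and by 2.23 (adjusted p 1.55e-05) in E0771 cells, while Adgre1, C1qa, C1qb and C1qc were at 0 reads in every E0771-LG sample. Of 4 macrophage markers tested in E0771-LG cells, 2 were above and 2 below 0: besides Lyz2, Cd68 rose by 2.17 (limma adjusted p 0.00207), and Mrc1 fell by 0.81 (adjusted p 0.0406), a call lost without shCtrl replicate 2 (−0.72, 0.0971) or 3 (−0.75, 0.129) or shPTN replicate 1 (−0.70, 0.101), 2 (−0.91, 0.0625) or 3 (−0.81, 0.0913) and in the fit of all 24 samples (0.233), in a range of 0.00458 to 0.233. In E0771 cells 2 of 3 tested were called higher and 1 was below 0, and the call of Mertk, the second of them (0.79, limma adjusted p 0.0214), was lost without shCtrl replicate 1 (0.78, 0.0502) or 3 (0.62, 0.0937) or shPTN replicate 3 (0.83, 0.0639) and in the fit of all 24 samples (0.138, the highest of a range from 0.01). Dendritic cell markers summed to 5.49, 7.61 and 8.44 against 5.82, 4.99 and 7.06 in E0771-LG cells, with Zbtb46 the most abundant (−0.34, not past the threshold). Itgax, looked up after the values were seen and too low to be tested, went the other way, with 0, 3 and 3 reads in shCtrl and 8, 7 and 7 in shPTN samples. Of the T cell markers, Cd3d alone was tested in E0771-LG cells, and it rose by 1.78 (SE 0.64, limma adjusted p 0.0406, 27 reads over 3 shCtrl and 83 over 3 shPTN libraries), a call lost without shCtrl replicate 3 (1.19, 0.124), with no filter (0.0554), under quantile normalization (1.25, 0.108) and in the fit of all 24 samples (0.0976), in a range of 0.0096 to 0.124. Cd3d passed the filter on low values through the shPTN samples, where it is high, and no support is taken from its call. The B cell marker Pax5 was at 66.3, 84.3 and 104 CPM in shCtrl and 45, 35.6 and 38.8 in shPTN samples of E0771-LG, and fell by 1.07 (limma adjusted p 0.000508), past the threshold in each fit but that of all 24 samples (adjusted p 0.316, the highest of a range from 3.35e-05).

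The knockdown effect on the H2-DM genes differed between the 2 lines. This was tested as an interaction over the 12 cell samples. Both genes passed.

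The knockdown effect in E0771-LG minus that in E0771 cells was 1.83 for H2-DMa (SE 0.48, limma adjusted p 0.0104) and 1.24 for H2-DMb1 (SE 0.32, adjusted p 0.0083). Over all 12 libraries left out in turn and 7 other alternatives, both calls held, with adjusted p-values of 0.0012 to 0.03 and 0.000408 to 0.0248. Both genes tested passed, where 34% of all genes did, and their median was 1.53 beside 0.08. Among the regulators, Rfxap passed (1.18, SE 0.22, adjusted p 0.00131), and Rfxank, at 0.72 (adjusted p 0.133), passed only without E0771-LG shCtrl replicate 2 (1.00, 0.0227, range 0.0227 to 0.281). The other 5 regulators tested lay between −0.18 (Nfyc) and 0.35 (Rfx5).

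**Figure D4:**
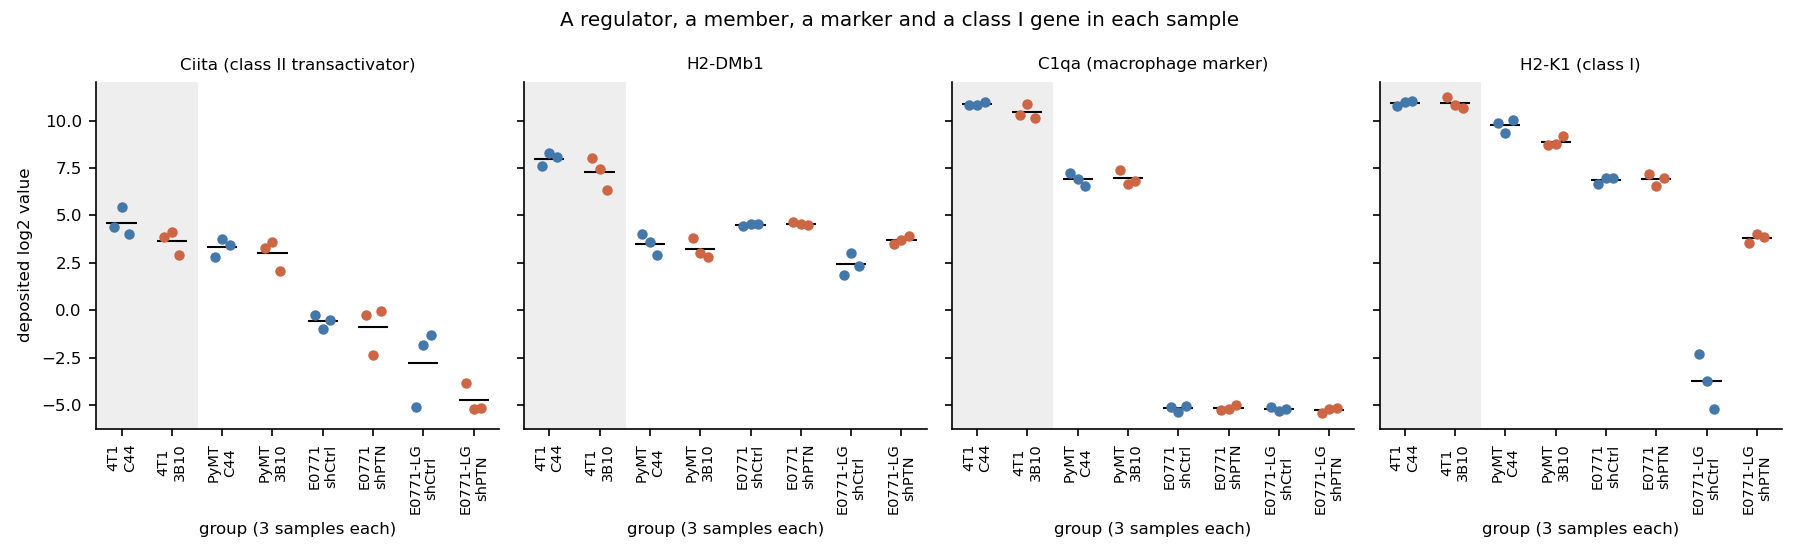
Log2 values of Ciita, H2-DMb1, the macrophage gene C1qa and the class I gene H2-K1 by sample, with controls in blue and PTN-inhibited samples in orange and 4T1 shaded for its other scale. H2-DMb1 and H2-K1 rise with knockdown in E0771-LG cells, where Ciita and C1qa are at or near the floor.

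Tumors were then compared with cultured cells, using controls only. The classical chains and Cd74 were far higher in MMTV-PyMT tumors than in either cell line. The H2-DM genes differed far less, and against E0771 cells they were lower in tumors. A tumor in FVB/N mice differs from a C57BL/6 cell line in strain, model and tissue, which cannot be told apart.

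Summed over 3 libraries, MMTV-PyMT C44 tumors had 5983 reads of H2-Aa, 7319 of H2-Ab1, 3508 of H2-Eb1 and 24633 of Cd74, and E0771 shCtrl cells had 10, 9, 13 and 34. The ratio of CPM was 568 for H2-Aa (counting interval 309 to 1185), 772 for H2-Ab1 (406 to 1689), 256 for H2-Eb1 (150 to 482) and 688 for Cd74 (492 to 993). Against E0771-LG shCtrl cells it was 1451 for H2-Aa (566 to 5327, from 4 reads), 3403 for H2-Eb1 (610 to 134400, from 1 read) and 664 for Cd74 (479 to 948, from 36 reads). H2-Ab1, with 0 reads, was at least 2367-fold higher in the tumors, taking 3 reads over the group as the floor. These 4 genes passed the filter on low values through the tumors and so had to differ, and no support is taken from their count.

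For the H2-DM genes the ratio of tumors to E0771 shCtrl cells was 0.564 (0.508 to 0.626) for H2-DMa and 0.522 (0.474 to 0.573) for H2-DMb1. H2-DMb1 was lower in the tumors by −1.01 on the log2 scale (SE 0.30, limma adjusted p 0.0060, lower in 3 of 3 samples), with adjusted p-values of 0.00104 to 0.0445 over alternatives. H2-DMa was lower by −0.85 (SE 0.37, adjusted p 0.0431), a call that many alternatives lost, in a range of 0.000789 to 0.17. It was lost without MMTV-PyMT C44 replicate 2 (−0.93, 0.0543) or 3 (−0.62, 0.17), without E0771 shCtrl replicate 2 (−0.81, 0.0951) or 3 (−0.76, 0.117), and, at −0.85, without E0771 shPTN replicate 3 (0.0504) or E0771-LG shPTN replicate 1 (0.0505), 2 (0.0511) or 3 (0.0504). It was also lost under median-of-ratios scaling (−0.79, 0.0509) and with replicate number as a block (0.0546). Against E0771 shCtrl cells 6 of 6 genes passed, 4 higher and 2 lower, where 76.6% of all genes did.

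Against E0771-LG shCtrl cells, H2-DMa was 5.18 times higher in reads in the tumors (4.21 to 6.43) and H2-DMb1 2.09 times (1.82 to 2.39). Their log2 differences were 2.51 (SE 0.37, limma adjusted p 6.02e-06) and 1.08 (SE 0.30, adjusted p 0.00339), but under quantile normalization they were 0.45 (adjusted p 0.332, range 1.52e-06 to 0.332) and −0.41 (adjusted p 0.389, range 0.000509 to 0.389), so the direction for H2-DMb1 depends on the scaling. All 6 genes passed, where 80.4% of all genes did.

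**Figure D5:**
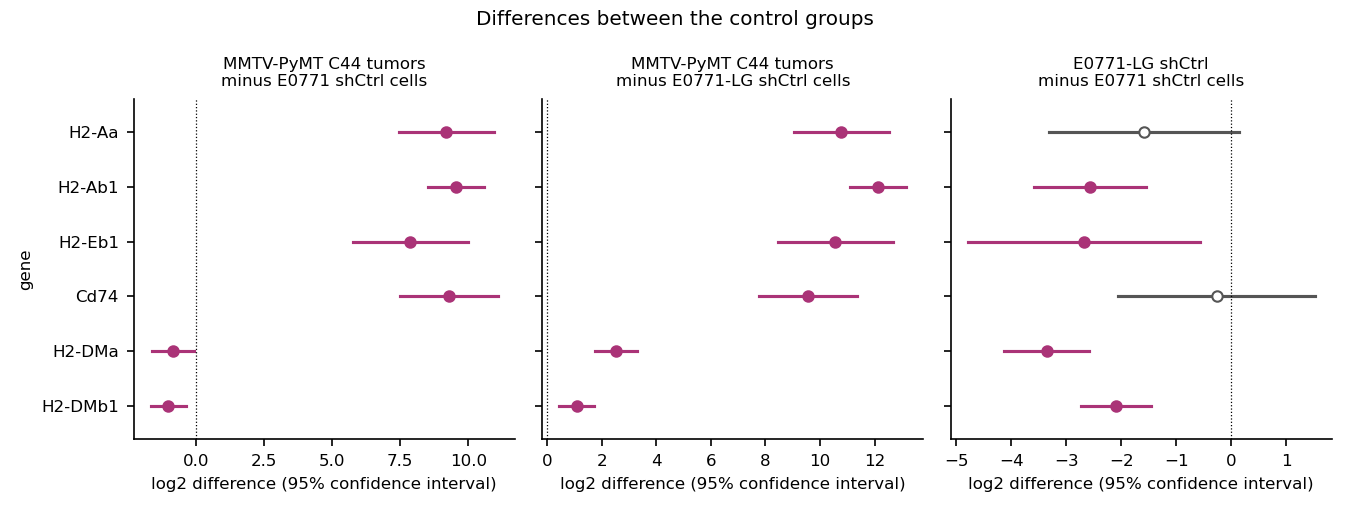
Log2 difference with 95% interval of each gene between MMTV-PyMT C44 tumors and each cell line, and between the 2 cell lines, with filled marks for an adjusted p under 0.05 and open marks for the rest. In the comparisons with tumors, H2-DMa and H2-DMb1 lie closer to 0 than the other 4 genes, with filled marks. H2-DMb1 against E0771-LG turns below 0 under quantile normalization.

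Ciita was higher in the tumors, by 3.92 (SE 0.84, limma adjusted p 0.000376) against E0771 and 6.10 (SE 0.84, adjusted p 2.88e-06) against E0771-LG shCtrl cells. The first was 1.70 (adjusted p 0.124, range 1.24e-07 to 0.124) under quantile normalization. The factors that bind beside it differed less. Nfya and Nfyc were higher by 0.70 and 0.69 and Nfyb fell by 0.52 against E0771 cells (adjusted p 3.73e-05, 2.41e-05 and 0.000783), and Rfx5 was 1.61 higher against E0771-LG cells (adjusted p 1.02e-07). In all, 3 regulators were higher and 1 lower against E0771, and 6 higher and 1 lower against E0771-LG cells, beside 76.6% and 80.4% of all genes called. Of the 6, Rfxank (1.17, limma adjusted p 0.000493) and Rfxap (0.39, adjusted p 0.0281) turned below 0 under quantile normalization (−0.05, 0.857, the highest of a range from 5.4e-05, and −0.04, 0.819, the highest of a range from 0.0134). Rfxap also lost its call without C44 replicate 1 (0.31, 0.103) or 2 (0.39, 0.054) or E0771-LG shCtrl replicate 1 (0.30, 0.111), under median-of-ratios scaling (0.26, 0.116) and in the fit of the 6 samples (0.0505), and Nfyc (0.33, adjusted p 0.013) without E0771-LG shCtrl replicate 2 (0.26, 0.0628) and under median-of-ratios scaling (0.20, 0.131, the highest of a range from 0.00683). Of 11 other class II and antigen processing genes, 6 were higher and 2 lower against E0771, and 8 and 2 against E0771-LG cells. Ctsl was lower by 1.80 against E0771 cells (limma adjusted p 8.16e-06, range 1.66e-06 to 0.000417). Ctss, the protease that digests the invariant chain, was 11.74 higher against E0771 and 9.87 against E0771-LG cells (adjusted p 5.48e-10 and 4.62e-09, fitted values that depend on the offset). H2-DMb2, which encodes a second beta chain for H2-DM, was 5.85 and 6.17 higher (adjusted p 8.49e-07 and 3.74e-07, fitted values that also depend on the offset), and under quantile normalization these were 1.43 (0.144, the highest of a range from 1.02e-08) and 1.92 (0.0532, the highest of a range from 8.46e-09). It had 83, 64 and 47 reads in C44 tumors and 0 to 2 in each cell sample. Ciita, Ctss, H2-DMb2 and Marchf1 were too low to be tested within either cell line, passed the filter through the tumors and so had to differ, and no support is taken from their calls.

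Marker lists were read in the same samples, beside 76.6% of all genes called against E0771 and 80.4% against E0771-LG cells. Among pan-leukocyte markers, 6 of 6 were higher in MMTV-PyMT C44 tumors than in E0771 shCtrl cells, and 5 of 6 than in E0771-LG shCtrl cells, where Laptm5 fell by 0.71 (limma adjusted p 0.000363). Macrophage markers were higher past the threshold in 10 and 9 of 11. Several other lists were mixed. The B cell marker Pax5 was called lower in both, with 2 reads over 3 C44 tumors against 3632 in E0771 and 4725 in E0771-LG shCtrl cells. Of the 2 dendritic cell markers, Itgax was called higher in both, and Zbtb46 was lower by 1.13 against E0771 (limma adjusted p 0.00321) and, without a call, by 0.29 against E0771-LG cells (called at −2.93 under quantile normalization). T cell markers were higher in 2 and 1 of 2, where Cd3d against E0771 cells (2.73) lost its call without E0771 shCtrl replicate 2 (2.17) and turned below 0 under quantile normalization (−1.04), neutrophil markers in 2 of 3 in both, and fibroblast markers in 3 of 4 with Pdgfra lower in both. The call of Pdgfra against E0771 cells (−0.62, limma adjusted p 0.0478, range 0.016 to 0.216) was lost without C44 replicate 1 (−0.46) or 3 (−0.60), E0771 shCtrl replicate 2 (−0.41) or 3 (−0.61) and, at −0.62, without 3B10 replicate 2, E0771-LG shCtrl replicate 3 or any shPTN library, and in 4 of 9 other alternatives. C1qa had 2937, 2305 and 1761 reads in C44 tumors. Co-stimulation genes had 1 higher (Cd86, with 230 reads over 3 C44 tumors and 0 in each shCtrl cell sample) and 3 lower of 4 tested in each comparison, interferon-gamma genes 3 higher and 2 lower of 8 against E0771 and 5 and 2 against E0771-LG cells, and class I genes 4 and 1 of 10 and 7 and 2 of 10. Ubiquitous genes (5) had 2 higher and 3 lower against E0771 and 1 higher and 2 lower against E0771-LG cells. Epithelial markers were higher in 6 of 6 and endothelial markers in 3 of 3 in both comparisons. Many of these markers are at or near 0 reads in the cell lines, passed the filter through the tumors (Pax5 through the cells) and so had to differ, and no support is taken from their counts. How much of the class II RNA of the tumors came from leukocytes was not tested.

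The 2 cell lines also differed from each other without any knockdown. Both H2-DM genes were lower in E0771-LG than in E0771 cells. The classical chains were so low in both that their differences depend on the alternative.

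H2-DMa fell by 3.36 on the log2 scale in E0771-LG shCtrl against E0771 shCtrl cells (SE 0.37, limma adjusted p 1.51e-06), and H2-DMb1 by 2.09 (SE 0.30, adjusted p 3.07e-05), lower in 3 of 3 samples each. The fit of 18 samples also tested the other 4 genes, which passed the filter through the tumors and were not tested in the fit of these 6 samples alone, so no support is taken from their calls. In the fit of 18 samples 4 of 6 genes were called lower, where 46.7% of all genes were called. The 2 besides the H2-DM genes were H2-Ab1 (−2.57, SE 0.49, adjusted p 0.000361, 9 reads against 0) and H2-Eb1 (−2.68, SE 1.00, adjusted p 0.0359, 13 reads against 1). H2-Ab1 lost its call with a pseudocount of 1 (−0.20, 0.614) and with voom (−2.60, 0.338), in a range of 0.000138 to 0.614. H2-Eb1 lost it without E0771 shCtrl replicate 1 (−2.83, 0.0587), 2 (−2.41, 0.108) or 3 (−2.81, 0.0637) and without E0771-LG shCtrl replicate 1 (−2.46, 0.0998) or 3 (−2.41, 0.103), and with a pseudocount of 1 (−0.27, 0.811), quantile normalization (−2.82, 0.141) and voom (−2.70, 0.618), in a range of 0.00439 to 0.811. H2-Aa (−1.58, adjusted p 0.125) passed without E0771-LG shCtrl replicate 3 (−2.64, 0.0097), in a range of 0.0097 to 0.746, and Cd74 differed by −0.27 (adjusted p 0.836).

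Of the 7 regulators that were also tested in the fit of these 6 samples alone, 3 were called lower and 1 higher between the shCtrl cells over 18 samples, E0771-LG minus E0771, where 46.7% of all genes were called. Ciita, with 35 reads against 12, was tested only through the tumors, and no support is taken from its call. Nfyb (0.0037), Nfya (−0.17) and Creb1 (−0.14) were not called, the last 2 turning above 0 under median-of-ratios scaling. Rfx5 fell by 1.32 (SE 0.17, limma adjusted p 8.53e-06), and Rfxap by 0.59 (adjusted p 0.00496, and 0.168 under quantile normalization, the highest of a range from 0.00197). Rfxank fell by 0.74 (adjusted p 0.0267), but its call was lost without E0771 shCtrl replicate 2 (−0.74, 0.0614) or 3 (−0.67, 0.0864) and without E0771-LG shCtrl replicate 1 (−0.49, 0.153) or 3 (−0.70, 0.0698), in a range of 0.00349 to 0.618. Ciita was at −2.17 (SE 0.84, adjusted p 0.0417), and its call was lost without E0771 shCtrl replicate 1 (−2.01, 0.107), 2 (−2.36, 0.0624) or 3 (−2.15, 0.09) and without E0771-LG shCtrl replicate 1 (−0.99, 0.282) and in 5 of 8 other alternatives, in a range of 0.015 to 0.282. Nfyc was 0.36 higher (adjusted p 0.0139) and lost its call without E0771 shCtrl replicate 2 (0.28, 0.0816) or E0771-LG shCtrl replicate 1 (0.30, 0.0658), in a range of 0.00133 to 0.0816. Of 8 other class II and antigen processing genes also tested in the fit of these 6 samples, 1 was higher and 5 lower, Sppl2a (−0.83, adjusted p 5.01e-05) among them. H2-K1, with 1728, 2574 and 2083 reads in E0771 shCtrl cells, fell by 10.61 (SE 0.45, adjusted p 3.7e-11, a fitted value that depends on the offset) and stood at the floor in E0771-LG shCtrl cells. It passed the filter on low values through samples other than these E0771-LG cells, and no support is taken from its call. This comparison shares its control samples with the knockdown comparisons, so the low start of E0771-LG cells and the rise under knockdown are not independent.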

How the data were processed

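RNA of 24 samples in 4 experiments was analysed. The authors aligned the reads with HISAT2 to mm10, counted them with featureCounts and worked with edgeR and, by the sample labels, limma. Their methods also name StringTie. They deposited 1 table of log2 values for 12091 genes, without naming the step or the gene filter. The deposited log2 values of 18 samples gave back whole reads with an offset of 0.5, at 15.63 to 21.12 M reads a sample, and the 4T1 values did not.

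Differences and all p-values came from limma 3.58.1 in R 4.3.3 (lmFit, eBayes with trend and robust), adjusted by Benjamini-Hochberg over all genes whose value off the log scale exceeded the lowest of the sample by at least 1 in at least 3 samples. Each experiment was fitted alone, tumors against cells over 18 samples, and interactions over 12. Calls were also run on simulated data with independent normal noise, no filter on low values and planted log2 changes of 2 or 3. Of these changes 82% to 100% were recovered, with 7 to 17 false calls in a comparison. Smaller changes were not simulated. Python 3.11.15, numpy 2.4.6, pandas 2.3.3 and GENCODE M21 served the rest. Alternatives were scaling, filter, pseudocount, prior, voom on recovered reads, a replicate block, other fits and leaving out each library.

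The 6 genes and the lists (class II regulators, other class II and antigen processing, interferon-gamma, class I, co-stimulation, ubiquitous genes and 9 cell type marker lists) were chosen with earlier results of these data known. Named are the 6 genes, the regulators, up to 4 called genes of each list by size of change, the most abundant marker of each list, and the 10 genes most alike across tumors.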

Additional observations from a re-analysis of the deposited data

Results flagged for a closer look

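The following effects of PTN knockdown differed between the 2 cell lines by a test of the difference itself, the interaction term in limma over the 12 cell samples. Values are log2, E0771-LG minus E0771. The genes named are the called ones of the lists, in a fit where 34% of all genes were called. Those of the class II genes were 1.83 for H2-DMa (adjusted p 0.0104) and 1.24 for H2-DMb1 (0.0083). In the lists beside them they were 1.18 for Rfxap (0.00131), 0.59 for Ifi30 (0.0105), 0.47 for Ap2m1 (0.00546), 2.08 for Irf8 (0.0172), −0.57 for Jak1 (0.00622), 7.53 for H2-K1 (9.14e-05), −0.98 for Erap1 (0.000537) and 0.89 for Tap2 (0.00836). Among cell type markers they were −2.19 for Laptm5 (5.61e-07), 3.10 for Cd68 (0.00103), 3.90 for Krt18 (0.00543), 1.62 for Krt8 (2.6e-05), −5.70 for Col1a1 (4.63e-06) and −2.10 for Pdgfra (0.000174). These 16 calls held with each of the 12 libraries left out in turn, except that Krt18 was tested in 9 of these and held in those 9. Krt18, and Dcn named below, did not pass the filter on low values over the 6 shCtrl samples alone. Their tests here needed the shPTN samples, and no support is taken from their calls. H2-K1 had 3, 1 and 0 reads in E0771-LG shCtrl samples, so its value depends on the offset, and no support is taken from its call.

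The call of 6 other genes was lost without single libraries. The value was 0.99 for Ctsb (adjusted p 0.0239), lost without E0771 shCtrl replicate 3 (0.97, 0.0522), E0771 shPTN replicate 2 (0.89, 0.0672) or E0771-LG shPTN replicate 2 (0.95, 0.0569), in a range of 0.00146 to 0.0672. It was −1.03 for Mertk (0.0269), lost without E0771 shCtrl replicate 3 (−0.85, 0.0806), E0771 shPTN replicate 2 (−0.92, 0.0663) or replicate 3 of E0771-LG shCtrl (−0.94, 0.0644) or shPTN (−0.90, 0.0651), in a range of 0.00544 to 0.0806. It was −0.70 for Pax5 (0.0194), lost without replicate 3 of E0771 shCtrl (−0.64, 0.054) or E0771-LG shCtrl (−0.54, 0.0539) or E0771-LG shPTN replicate 2 (−0.62, 0.057), in a range of 0.00304 to 0.057. It was −0.96 for Lyz2 (0.0331), lost without E0771 shCtrl replicate 1 (−0.92, 0.0623) or 3 (−0.96, 0.0624), E0771 shPTN replicate 1 (−0.84, 0.0761) or 3 (−0.94, 0.0711), E0771-LG shCtrl replicate 2 (−0.90, 0.0517) or 3 (−0.79, 0.0854) or E0771-LG shPTN replicate 1 (−0.80, 0.0748), in a range of 0.00157 to 0.0854. For Dcn it was 3.07 (0.0467), lost without E0771 shCtrl replicate 1 (2.84, 0.0898), 2 (3.14, 0.064) or 3 (3.24, 0.0654), E0771 shPTN replicate 2 (2.40, 0.0978) or 3 (3.30, 0.0534), E0771-LG shCtrl replicate 3 (2.35, 0.118) or E0771-LG shPTN replicate 2 (2.85, 0.118) or 3 (2.98, 0.0974), in a range of 0.0286 to 0.118. For Ppia it was 1.08 (0.0489), lost without E0771 shCtrl replicate 1 (0.91, 0.0997) or 2 (1.08, 0.0749), E0771 shPTN replicate 1 (1.20, 0.05), 2 (1.14, 0.0816) or 3 (0.88, 0.0983), E0771-LG shCtrl replicate 1 (0.97, 0.0955) or 3 (0.93, 0.102) or E0771-LG shPTN replicate 1 (1.03, 0.0857) or 3 (0.92, 0.0857), in a range of 0.0126 to 0.104.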

How the results depend on the processing

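The number of class II genes past the threshold moved by over 1.5 times in 6 settings, besides those that leave out a library. In E0771 cells it was 1 (H2-Ab1) in place of 0 with no filter and in the fit of all 24 samples. In E0771-LG cells it was 1 in place of 2 under the stricter filter, where H2-DMa was not tested, and between 1 and 2 with a library left out (1 without E0771-LG shPTN replicate 3). Between the shCtrl cells of the 2 lines it was 2 in place of 4 with a pseudocount of 1, in the fit of those 6 samples alone, where only H2-DMa and H2-DMb1 were tested, and with voom. Smaller moves were 5 in place of 6 in tumors against E0771 (median-of-ratios scaling, the replicate block, and without PyMT C44 replicate 2 or 3, E0771 shCtrl 2 or 3, E0771 shPTN 3 or any E0771-LG shPTN library), 4 in place of 6 against E0771-LG (quantile normalization), and 3 in place of 4 between cell lines (quantile normalization, and without any E0771 shCtrl library or E0771-LG shCtrl 1).

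Some differences turned sign. Median-of-ratios scaling gave −0.033 for Laptm5 and −0.036 for Lyz2 in MMTV-PyMT tumors, 0.0013 for Nfya in E0771 cells, −0.12 for Creb1 in tumors against E0771-LG, 0.012 for Nfya and 0.040 for Creb1 between cell lines, and −0.0073 for H2-Aa in the 3B10 interaction. Quantile normalization gave −0.027 for Laptm5, 0.077 for Cd8a and −0.016 for S100a8 in MMTV-PyMT tumors, 0.0090 for Nfya in E0771, and −0.083 for Rfx5 and −0.31 for Cdh5 in E0771-LG cells. In tumors against E0771 cells it gave −0.24 for Rfxank, −1.60 for Marchf1 (called lower, limma adjusted p 0.0228), −0.24 for Cd8a, −1.04 for Cd3d and −0.60 for S100a8, and against E0771-LG −0.41 for H2-DMb1, −0.053 for Rfxank, −0.039 for Rfxap, −0.074 for Marchf1 and −0.83 for S100a8. Between cell lines it gave 0.22 for S100a8, and in the 3B10 interaction −0.23 for H2-Aa, −0.0099 for H2-Ab1 and −0.25 for Cd74. A pseudocount of 1 gave 0.020 for Cd8a in MMTV-PyMT tumors.

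With each library left out in turn, these differences spanned 0. In 4T1 tumors they ran from −0.040 to 0.12 for Nfyc, −0.069 to 0.36 for Creb1, −0.041 to 1.06 for Col1a1 and −0.63 to 0.096 for Cdh5. In MMTV-PyMT tumors they ran from −0.27 to 0.24 for H2-DMa, −0.65 to 0.11 for Ciita, −0.0023 to 0.28 for Rfxank, −0.097 to 0.016 for Nfyc, −0.21 to 0.15 for Laptm5, −0.38 to 0.34 for Lyz2, −0.12 to 0.23 for Cd8a, −0.72 to 0.77 for S100a8, −0.28 to 0.024 for Krt8, −0.71 to 0.043 for Col1a1 and −0.11 to 0.32 for Pecam1. In E0771 cells they ran from −0.10 to 0.036 for Nfya, −1.11 to 0.12 for S100a8 and −0.11 to 0.014 for Krt8, and in E0771-LG cells from −0.19 to 0.016 for Nfya, −0.14 to 0.016 for Nfyc and −0.22 to 0.60 for Cdh5. In tumors against E0771-LG cells they ran from −0.031 to 0.056 for Creb1 and −0.87 to 0.21 for Cd3d, and between cell lines from −0.84 to 0.31 for Cd74 and −0.042 to 0.072 for Nfyb. In the knockdown interaction they ran from −0.16 to 0.047 for Nfya and −0.14 to 0.023 for Creb1. In the 3B10 interaction they ran from −0.38 to 0.42 for H2-Aa, −0.28 to 0.51 for H2-Ab1, −1.85 to 0.55 for H2-Eb1, −0.32 to 0.40 for Cd74, −0.030 to 0.79 for H2-DMb1, −0.22 to 0.064 for Rfxank, −0.38 to 0.086 for Nfya, −0.16 to 0.011 for Nfyc and −0.10 to 0.32 for Creb1.

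For the 6 genes, 338 other values kept direction and call under alternatives and 8 lost the call, and with a library left out 480 kept both, 14 lost the call and 1 gained it. For other named genes these were 2294, 101 lost and 4 gained, and 3518, 198 lost and 11 gained. Calls over all genes moved by over 1.5 times in E0771 cells (2140, against 1268, 1164 and 1220 without shCtrl replicates 2 and 3 and shPTN replicate 3, and 999 in the fit of all 24 samples), in E0771-LG cells (4826, against 3206 without shPTN replicate 2), in the 4T1 and MMTV-PyMT tumors (0, against 6 and 5 in the fit of all 24 samples), and in the 3B10 interaction (0, against 4 without MMTV-PyMT C44 replicate 3 and 1 without 3B10 replicate 2). Between cell lines, 1854 genes were higher and 3604 lower, against 2824 and 2586 with median-of-ratios scaling and 2060 and 2115 with quantile normalization, which shifted the median of all genes by 0.18 and 0.15. The median shifted by −0.13 and −0.28 in tumors against E0771-LG, and by −0.11 with quantile normalization against E0771 cells. The cause was not tested.

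Between the 2 groups of each experiment, centred values of replicates with the same number had correlations between −0.33 and 0.44, and no other groups were compared in this way. With replicate number as a block, 0, 0, 0 and 2 of the class II genes passed in the 4 experiments, 5 and 6 in tumors against E0771 and E0771-LG, and 4 between cell lines.

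The limits are 3 samples a group, the unstated steps behind the log2 values, a separate scale for 4T1 tumors, a single shRNA, an unstated strand of counting at H2-DMa and Brd2, and whole tumors in which cell types are mixed. No fold is given where both groups are at or under 3 reads. Left out with 1 library, a group of 2 is assumed to vary like the others.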

Other observations

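Class I presentation genes of MMTV-PyMT tumors had lower means with 3B10 in 10 of 10, beside 39% of all genes, with a median log2 difference of −0.35, and none passed the threshold with limma (nor did any by voom). Without 3B10 replicate 3 it was again 10 of 10, beside 39.8% of all genes, with a median of −0.61, 7 of 10 at an unadjusted p under 0.05, beside 3.14% of all genes, and 0 past the threshold by limma. H2-K1 reads were 18087, 12584 and 19996 with C44 and 6846, 7943 and 9375 with 3B10, a difference of −0.88 (unadjusted p 0.00474, adjusted p 1), and H2-K1 was looked up after its values were seen. In 4T1 tumors 8 of the 10 were below 0, beside 48.4% of all genes, with a median of −0.06, and 5 of 10 with a median of 0.02 without 3B10 replicate 3. The interferon-gamma list had medians of −0.19 in 4T1 and −0.06 in MMTV-PyMT tumors, with 7 and 6 of 8 below 0, and of −0.12 and −0.08 without replicate 3 of the 3B10 tumors, again with 7 and 6 below 0.

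The co-stimulation and class II binding list, with 5 of 8 genes in the table, held no call within any of the 4 experiments. The 5 ubiquitous genes held none in tumors or E0771 cells and 3 in E0771-LG cells, each higher, where 46.4% of all genes were called, with a median of 0.28. In E0771-LG cells, epithelial markers summed to 158, 204 and 164 CPM in shCtrl and 424, 565 and 516 in shPTN samples, Krt8 rising by 1.57 (SE 0.14, limma adjusted p 3.88e-05). Fibroblast markers summed to 73, 110 and 87.4 against 50.7, 51 and 57.1, with Pdgfra the most abundant. Of the 4, 1 was called higher and 2 lower, beside 46.4% of all genes called, and 2 were above 0, with a median of 0.31. Col1a1 fell by 4.68 (SE 0.46, limma adjusted p 5.42e-05) and Pdgfra by 0.68 (SE 0.16, adjusted p 0.00649, and 0.0528 in the fit of all 24 samples, the highest of a range from 0.000331). Dcn rose by 1.64 (SE 0.62, limma adjusted p 0.0486), a call lost without E0771-LG shCtrl replicate 3 (0.92, 0.148) or shPTN replicate 2 (1.42, 0.172) or 3 (1.55, 0.133), with no filter (0.0919), under quantile normalization (1.17, 0.112) and with an eBayes that is not robust (0.0549), in a range of 0.0108 to 0.172. The test of Dcn needed the shPTN samples to pass the filter on low values, and no support is taken from its call. In E0771 cells fibroblast markers went the other way, with sums of 50.1, 71 and 56.5 in shCtrl and 132, 144 and 154 in shPTN samples. There 3 of 3 tested were called higher, beside 20.6% of all genes.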
